A study of Gallus gallus with 24 samples.

Results

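The 92 genes described here encode the receptors for noradrenaline, adrenaline, acetylcholine and adenosine, the G protein alpha subunits and RGS proteins behind them, and the enzymes, kinases and anchors of cyclic AMP (cAMP) signaling. They were taken from the 12422 named genes of the expression table by gene symbol alone (ADRA, ADRB, CHRM, ADORA, GNA, RGS, ADCY, PDE, PRKAC, PRKAR and AKAP followed by a subtype number or letter). They fell into 12 families. RNA was sequenced from the sinoatrial node (SAN), the pacemaker region of the heart, and from right atrial tissue, both dissected from embryonic day 6 chicks (HH stage 30), with 4 biological replicates in each of 6 groups. Freshly isolated SAN and atria are called t0. The vehicle groups were SAN and atria kept for 14 hours in DMEM/F12 medium with 15% fetal bovine serum and antibiotics plus a small volume of water. The CN03 groups were kept for the same 14 hours in that medium with 0.25 ug/ml CN03, a cell-permeable activator of the small GTPase RhoA derived from a bacterial toxin. The labels name no transgene or deletion. Tissue from 5 preparations was pooled for each replicate, which held every cell type of the dissected piece, so fewer cells of a type and less RNA per cell cannot be told apart in any value below.

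Pacemaker cells start the heartbeat spontaneously, and both branches of the autonomic nervous system adjust its rate. Noradrenaline acts on beta adrenergic receptors, whose partner Gs switches on adenylyl cyclases, and the cAMP they make opens HCN channels and activates protein kinase A (PKA). Acetylcholine acts on the CHRM2 receptor, whose partner Gi inhibits the cyclases and frees beta-gamma subunits that open GIRK potassium channels. RGS proteins end the signal by speeding GTP hydrolysis on the alpha subunit, phosphodiesterases (PDEs) break cyclic nucleotides down, and A-kinase anchoring proteins (AKAPs) hold PKA near its targets.

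Values are the log2 expression values as the authors deposited them, in arbitrary normalized units. The 4 values of a group are given in the order of its replicates 1 to 4. A log2 fold change (log2FC) is the difference between the mean log2 values of 4 and 4 libraries, with its standard error (SE) and an adjusted p from limma over all 12422 genes. A gene was said to rise or fall, or to be higher or lower, where the adjusted p was under 0.05 and the log2FC passed 1 in either direction. Most genes shown in every library were picked because they rose or fell with CN03 without overlap between CN03 and vehicle libraries. For those genes that lack of overlap is no further evidence. No level is compared between genes, because it is not known whether the values were divided by transcript length, and read depth is unknown. Of the 92 genes, 7 had a mean log2 value below 0 over the 6 groups, and 0 reached the lowest value of the table in any library.

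The tissue labels were checked against marker lists, in linear units summed over a list. The SAN myocyte list (8 of 8 genes present) summed to between 904 and 1082 in SAN and 295 and 497 in atria at t0, and 6 of its 8 genes were higher in SAN. The 13 of 15 cardiomyocyte genes present summed to between 15210 and 22259 in SAN and 32122 and 37563 in atria with vehicle, and to between 10402 and 12194 and 21003 and 30875 with CN03. With CN03, 5 of these 13 genes fell in SAN and 4 in atria. The SAN myocyte list had 1 rise and 5 falls with CN03 in SAN, and 3 and 4 in atria. The atrial myocyte list (7 genes) had 4 rises and 1 fall in each tissue. Of 11 endothelial markers 2 rose and 1 fell in SAN, and 5 rose in atria. Of 9 fibroblast markers 1 rose and 5 fell in SAN, and 1 and 3 in atria. Of 9 epicardial markers 3 fell in SAN, and 2 rose and 5 fell in atria. Of 11 neuron markers 1 rose and 5 fell in SAN, and 1 and 3 in atria, with a summed level of 303 to 573 over the 24 libraries. Of 5 Schwann cell markers 1 rose and 1 fell in SAN, and 2 and 2 in atria. Of 6 erythroid markers 5 fell in atria. Over all genes 10.2% rose and 17.1% fell with CN03 in SAN, and 13.8% and 15.6% in atria. In culture with vehicle, 6 of 6 erythroid and 6 of 11 endothelial markers fell in atria and 0 rose. In SAN 1 erythroid marker fell and 0 rose, and 1 endothelial marker rose and 2 fell. Over all genes 9.02% fell in culture in atria and 5.59% in SAN. Of the 13 cardiomyocyte genes, 7 were lower in SAN than in atria at t0, 7 with vehicle and 10 with CN03, and 0 were higher. Over all genes 2.87%, 3.36% and 4.07% were lower in SAN. With CN03 5 of 6 erythroid markers were higher in SAN than in atria and 0 lower, beside 3.84% higher over all genes. The part of these markers in the results below was not tested. In 1 library, replicate 2 of CN03-treated atria, the single row without a gene symbol took 17.9% of the linear sum, against 6.58% to 9.38% in the other 23.

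With CN03, 10 of the 92 genes rose and 18 fell in SAN relative to vehicle, against a background over all genes of 10.2% rising and 17.1% falling. Among genes with a mean log2 value above 1 the SAN counts were 8 and 10. Fewer than 92 members lay above that level, so these counts are not shares of the 92. Of all 11137 genes above that level 1134 rose and 1609 fell. In atria, 18 rose and 18 fell, against a background of 13.8% and 15.6%. As shares of the 92 these were 10.87% and 19.57% in SAN, close to the background, and 19.57% in each direction in atria. The members had a median log2FC of -0.145 in SAN and 0.060 in atria, beside -0.056 and -0.012 over all genes. Between the tissues, 10 genes rose in both and 13 fell in both. A further 5 fell in SAN alone, 8 rose in atria alone and 5 fell in atria alone. The other 51 passed in neither, and none moved in opposite directions. The same counts were not made over all genes, so this sharing is not shown to be particular to the members. A difference between the tissues was tested as an interaction. By that test the CN03 response was more positive in SAN for 6 genes and more negative for 9, against a background of 1.96% and 6.34%. Quantile normalization of the libraries turned this split of 6 and 9 into 6 and 6. Over all genes it turned 244 and 787 into 374 and 560. Without the atrial library with the large unnamed row, the atrial counts were 18 rising and 17 falling.

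**Figure D1:**
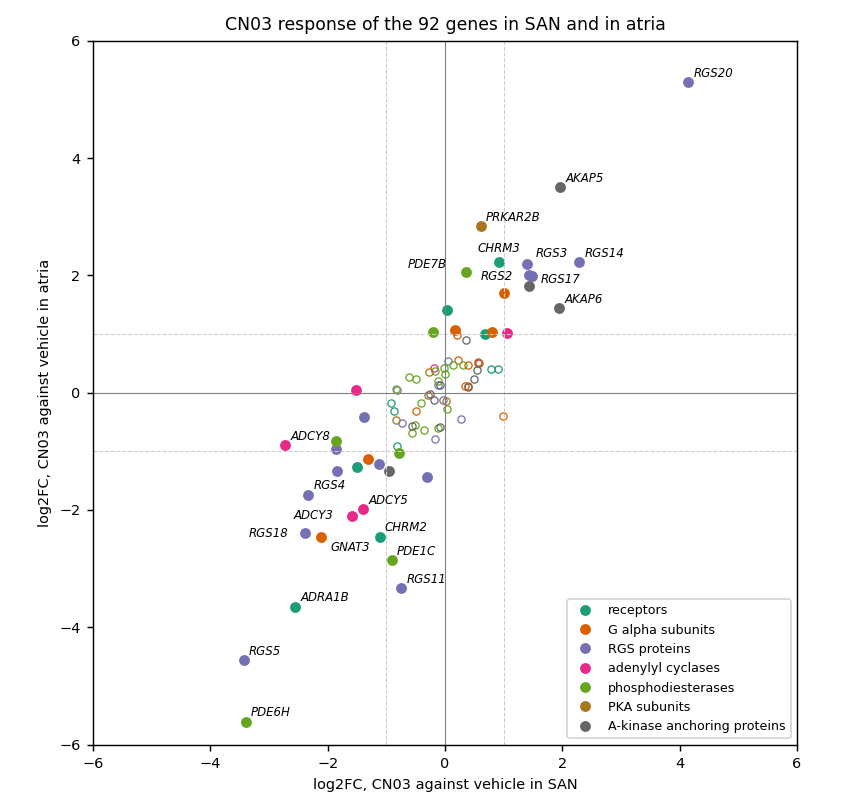
Each point is a gene, with its log2FC for CN03 against vehicle in SAN on the x axis and in atria on the y axis, colored by family, and filled points passed the test in at least 1 tissue. Dashed lines mark a log2FC of 1 in either direction. RGS20 lies at the upper right at 4.14 and 5.30, PDE6H at the lower left at -3.40 and -5.61, and PRKAR2B above the upper dashed line at 0.61 and 2.83.

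More of these genes rose than fell in culture with vehicle alone, and most passed in neither direction. Relative to t0, 20 genes rose and 4 fell in SAN, against a background of 8.01% and 5.59%, and 28 rose and 8 fell in atria, against 10.1% and 9.02%. As shares of the 92 these were 21.74% rising in SAN and 30.43% in atria. Among genes with a mean log2 value above 1 the 20 rises in SAN became 12, and the 995 over all genes became 731. That filter, here and below, kept fewer than 92 members. Members had a median log2FC of 0.206 in SAN and 0.330 in atria, where the medians over all genes were -0.020 and -0.003. Between the tissues, 12 members were higher and 5 lower in SAN than in atria at t0, against a background of 6.86% and 2.87%. With vehicle 16 were higher and 6 lower, against 7.66% and 3.36%. With CN03 6 were higher and 6 lower, against 3.84% and 4.07%, and the 6 higher became 3 among genes with a mean log2 value above 1, 3 after quantile normalization and 1 with a pseudocount of 1 added to the linear values, which shrinks the differences of low genes. Quantile normalization changed the first of these splits to 9 and 8 and that of the vehicle groups to 10 and 12. Over all genes it changed 852 and 356 at t0 to 596 and 502, and 952 and 418 with vehicle to 719 and 630. With CN03 the 477 higher over all genes became 282 with the filter, 349 after quantile normalization and 223 with the pseudocount. Leaving out replicate 4 of SAN vehicle raised the count lower in SAN with vehicle from 6 to 10, and leaving out replicate 1 of CN03-treated atria cut the count lower in SAN with CN03 from 6 to 3.

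The receptors described were 11 genes. With CN03 none rose and 3 fell in SAN, and 3 rose and 3 fell in atria. The falls in SAN were 27.27% of the receptors, as were the rises and the falls in atria. Over all genes 10.2% rose and 17.1% fell in SAN, and 13.8% and 15.6% in atria. ADRA1B, CHRM2 and ADRA2C fell in both tissues, and CHRM3, CHRM4 and ADORA2B rose in atria.

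ADRA1B, an alpha-1 adrenergic receptor that couples mainly to Gq, rose in culture and fell with CN03. In SAN its values were 0.38, -0.49, -0.30 and 0.21 at t0, 1.59, 1.73, 1.73 and 2.57 with vehicle, and -0.95, -0.08, -0.78 and -0.77 with CN03. In atria they were -2.18, -2.05, -0.75 and -1.32 at t0, 1.48, 1.33, 1.25 and 1.40 with vehicle, and -1.03, -2.89, -2.68 and -2.54 with CN03. In each tissue the vehicle libraries lay above all t0 and all CN03 libraries, and the CN03 libraries came back to the t0 range or below it. The fall with CN03 was -2.55 ± 0.37 (SE, adjusted p = 1.77e-06) in SAN and -3.65 ± 0.37 (SE, adjusted p = 5.8e-09) in atria, or 5.86-fold and 12.5-fold. The rise in culture was 1.96 ± 0.37 (SE, adjusted p = 0.000127) in SAN and 2.94 ± 0.37 (SE, adjusted p = 4.05e-07) in atria. ADRA1B was also higher in SAN than in atria at t0 (log2FC 1.52 ± 0.37 SE, adjusted p = 0.00236) and with CN03 (log2FC 1.64 ± 0.37 SE, adjusted p = 0.00123), although at t0 quantile normalization left a log2FC of 0.69 with an adjusted p of 0.18.

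Among the alpha-2 adrenergic receptors, which couple to Gi, ADRA2C fell with CN03 too. SAN libraries of ADRA2C read 1.54, 2.83, 2.37 and 2.22 at t0, 3.51, 3.10, 3.10 and 2.60 with vehicle, and 1.27, 1.46, 2.04 and 1.55 with CN03. Atrial libraries read 1.33, 2.12, 1.64 and 1.64 at t0, 3.04, 3.07, 3.10 and 3.27 with vehicle, and 2.33, 1.47, 2.01 and 1.59 with CN03. CN03 and vehicle libraries did not overlap in either tissue. ADRA2C fell by 1.50 in SAN (SE 0.25, adjusted p = 9.01e-06) and by 1.27 in atria (SE 0.25, adjusted p = 7.04e-05) on the log2 scale, and rose in culture in atria (log2FC 1.44 ± 0.25 SE, adjusted p = 2.58e-05). In atria the fall with CN03 came to -0.96 after quantile normalization, short of the limit. ADRA2A and ADRA2B passed in no comparison, with CN03 log2FCs of 0.90 and -0.81 in SAN and 0.40 and -0.92 in atria.

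ADRB1, the main cardiac beta adrenergic receptor in mammals, through which noradrenaline speeds the heartbeat, stayed within the fold limit with CN03. It read in SAN 4.00, 4.17, 4.11 and 4.40 at t0, 4.43, 4.98, 4.39 and 5.04 with vehicle, and 3.58, 4.03, 3.70 and 3.84 with CN03. Its atrial values were 3.91, 2.98, 3.61 and 3.41 at t0, 3.56, 3.60, 3.27 and 3.38 with vehicle, and 3.53, 3.07, 3.30 and 3.22 with CN03. In SAN all 4 CN03 libraries lay below all 4 vehicle libraries, and in atria the groups overlapped. The SAN log2FC was -0.92 (SE 0.17, adjusted p = 4.75e-05), just inside the fold limit, and reached between -1.0 and -1.03 without vehicle replicates 1 or 3 or CN03 replicate 2. The atrial log2FC was -0.17 (adjusted p = 0.376). With vehicle ADRB1 was higher in SAN than in atria (log2FC 1.26 ± 0.17 SE, adjusted p = 3.02e-06).

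CHRM2, a Gi-coupled muscarinic receptor of the heart and a target of vagal acetylcholine, fell with CN03 in both tissues and fell further in atria. The SAN values of CHRM2 were 5.67, 5.59, 5.96 and 6.0 at t0, 5.97, 6.16, 6.23 and 6.99 with vehicle, and 5.47, 5.47, 5.08 and 4.88 with CN03. The atrial values were 6.58, 6.24, 6.73 and 6.74 at t0, 7.43, 7.20, 7.10 and 7.09 with vehicle, and 4.94, 4.68, 4.37 and 5.0 with CN03. At t0 and with vehicle all atrial libraries were above all SAN libraries, and with CN03 the tissues overlapped. CHRM2 fell by 1.12 in SAN (SE 0.18, adjusted p = 9.6e-06) and by 2.46 in atria (SE 0.18, adjusted p = 2.76e-11), that is to levels 2.17-fold and 5.5-fold lower. The response differed between tissues (log2FC 1.34 ± 0.26 SE, adjusted p = 0.000495). Without replicate 4 of SAN vehicle, the highest SAN library at 6.99, the SAN log2FC was -0.90 with an adjusted p of 3.87e-05 and no longer passed the fold limit.

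CHRM3, a Gq-coupled muscarinic receptor, moved the other way. Its SAN values were 4.62, 4.58, 4.22 and 4.14 at t0, 2.69, 2.05, 2.73 and 2.30 with vehicle, and 3.36, 3.27, 3.73 and 3.13 with CN03. In atria CHRM3 had 2.85, 3.22, 3.46 and 2.57 at t0, 0.87, 1.22, 1.43 and 0.98 with vehicle, and 3.37, 3.34, 3.93 and 2.75 with CN03. Vehicle libraries were the lowest in each tissue, with no overlap with t0 or CN03. CHRM3 fell in culture, by 1.95 in SAN (adjusted p = 1.68e-07) and by 1.90 in atria (adjusted p = 1.36e-07). With CN03 it rose in atria (log2FC 2.22 ± 0.22 SE, adjusted p = 4.79e-09), while the SAN log2FC of 0.93 (adjusted p = 0.000748) stayed inside the limit and passed it, at 1.01 to 1.02, without vehicle replicates 1 or 3 or CN03 replicate 4, and at 1.39 after quantile normalization. The interaction was -1.29 ± 0.32 (SE, adjusted p = 0.00379), or -0.97 after quantile normalization. CHRM3 was higher in SAN than in atria at t0 (1.36, adjusted p = 3.6e-05) and with vehicle (1.32, adjusted p = 4.53e-05), and with CN03 the difference was 0.03. CHRM4, a Gi-coupled member, rose in atria with CN03 at the limit itself (log2FC 1.01 ± 0.15 SE, adjusted p = 2.51e-06), and without vehicle replicates 1, 2 or 4 or CN03 replicates 2 or 4 the value was 0.90 to 1.00, and after quantile normalization 0.99. A pseudocount of 1 brought CHRM4 in atria (0.96), the interaction of CHRM3 (-1.0) and both tissue differences of ADRA1B (0.55 at t0 and 0.42 with CN03) inside the limit.

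The adenosine receptors were ADORA1, coupled to Gi, and ADORA2A and ADORA2B, coupled to Gs. ADORA2B rose in culture in both tissues. SAN values of ADORA2B were 1.47, 1.34, 1.16 and 1.58 at t0, 3.90, 3.92, 3.73 and 3.92 with vehicle, and 3.65, 3.79, 4.11 and 4.03 with CN03. Atrial values of ADORA2B were 0.60, 0.70, 0.82 and 0.84 at t0, 3.17, 2.59, 2.95 and 3.36 with vehicle, and 4.33, 4.48, 4.46 and 4.43 with CN03. All cultured libraries lay above all t0 libraries, and in atria the CN03 libraries lay above those with vehicle. The rise in culture was 2.48 ± 0.14 (SE, adjusted p = 1.67e-12) in SAN and 2.28 ± 0.14 (SE, adjusted p = 4.06e-12) in atria. CN03 raised it further in atria (log2FC 1.41 ± 0.14 SE, adjusted p = 3.98e-09) and gave 0.03 in SAN (adjusted p = 0.854), with an interaction of -1.37 ± 0.20 (SE, adjusted p = 2.19e-05).

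ADORA1, which slows the heart when adenosine binds, passed in no comparison. Its values in SAN were 2.54, 2.27, 2.66 and 3.33 at t0, 2.23, 2.19, 2.03 and 2.26 with vehicle, and 2.84, 3.22, 2.64 and 3.17 with CN03. In atria ADORA1 read 3.58, 2.35, 3.66 and 3.61 at t0, 3.16, 3.13, 2.91 and 2.65 with vehicle, and 3.78, 3.36, 3.03 and 3.29 with CN03. The CN03 and vehicle libraries of SAN did not overlap, with a log2FC of 0.79 (adjusted p = 0.00649) that became 1.34 after quantile normalization, and the atrial log2FC was 0.40 (adjusted p = 0.148). ADORA2A rose in culture in atria (log2FC 1.16 ± 0.23 SE, adjusted p = 0.000141), with CN03 log2FCs of -0.87 in SAN and -0.32 in atria.

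**Figure D2:**
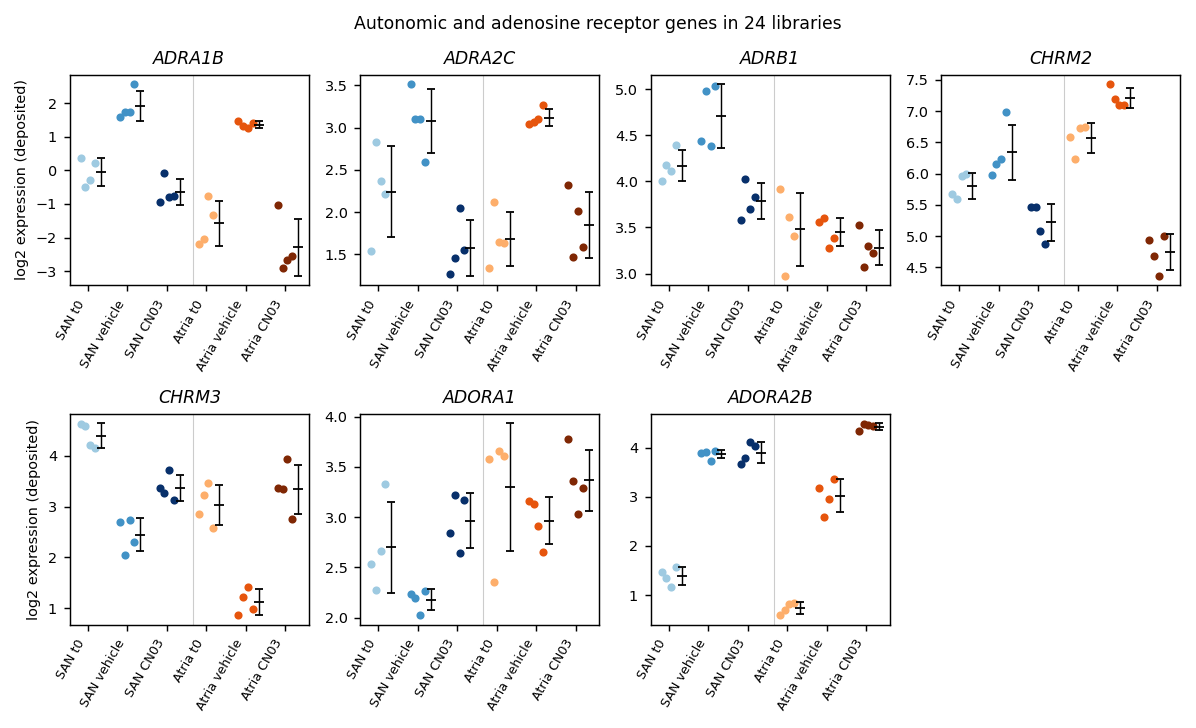
The y axis is the deposited log2 expression of 7 receptor genes and the x axis the 6 groups, with a point per library and the mean and SD of 4 libraries beside them. The mean of ADRA1B is highest with vehicle and lowest with CN03 in both tissues, CHRM2 drops in atria from 7.09 to 7.43 with vehicle to 4.37 to 5.0 with CN03, and ADORA2B rises from t0 to culture in both tissues.

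Of the 13 G alpha subunits, 1 rose and 2 fell with CN03 in SAN, and 3 rose and 2 fell in atria. These were 7.69% and 15.38% in SAN, beside 10.2% and 17.1% over all genes. In atria they were 23.08% and 15.38%, beside 13.8% and 15.6%. GNAS, the Gs subunit that activates the cyclases, showed no change past the fold limit. In SAN GNAS values were 6.91, 6.48, 6.73 and 7.06 at t0, 7.35, 6.87, 7.13 and 7.29 with vehicle, and 7.53, 7.14, 7.37 and 7.53 with CN03. In atria GNAS values were 6.42, 6.34, 6.51 and 6.82 at t0, 6.74, 6.39, 6.49 and 6.72 with vehicle, and 7.17, 7.0, 7.07 and 7.31 with CN03. Its CN03 log2FC was 0.23 in SAN (adjusted p = 0.117) and 0.55 in atria (adjusted p = 0.000576), where the groups did not overlap.

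GNAI1, one of the Gi subunits that inhibit the cyclases, rose in both tissues. GNAI1 in SAN read 5.62, 5.72, 5.46 and 5.51 at t0, 5.84, 5.43, 5.76 and 5.50 with vehicle, and 6.79, 6.68, 6.54 and 6.55 with CN03. GNAI1 in atria read 4.94, 5.25, 5.24 and 5.12 at t0, 4.38, 4.81, 4.70 and 4.45 with vehicle, and 6.31, 6.29, 6.32 and 6.21 with CN03. All CN03 libraries were above all vehicle and t0 libraries of the same tissue. GNAI1 rose in SAN (log2FC 1.01 ± 0.10 SE, adjusted p = 6.54e-09) and in atria (log2FC 1.70 ± 0.10 SE, adjusted p = 5.6e-13). The SAN value sat on the limit: it was 0.94 to 0.99 without vehicle replicates 2 or 4 or CN03 replicates 1 or 2, 0.83 after quantile normalization and 0.99 with a pseudocount of 1. With vehicle GNAI1 was higher in SAN than in atria (log2FC 1.05 ± 0.10 SE, adjusted p = 2.11e-08), or 0.98 without replicate 1 of either tissue.

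GNAI2 rose in atria with CN03. SAN libraries of GNAI2 had 7.39, 7.43, 7.40 and 7.35 at t0, 7.86, 7.98, 7.67 and 7.68 with vehicle, and 7.97, 8.01, 7.90 and 8.03 with CN03. Atrial libraries of GNAI2 had 7.36, 7.33, 7.15 and 7.21 at t0, 7.31, 7.02, 7.05 and 7.24 with vehicle, and 8.29, 8.19, 8.15 and 8.28 with CN03. Only the atrial CN03 libraries stood clear of their vehicle libraries. The atrial log2FC was 1.07 ± 0.07 (SE, adjusted p = 7.65e-12), or 0.74 after quantile normalization, and the SAN log2FC was 0.18 (adjusted p = 0.0381). The interaction of -0.90 (adjusted p = 2.08e-06) stayed inside the fold limit. The third Gi subunit, GNAI3, gave 0.34 and 0.12. GNAQ, the subunit that activates phospholipase C, rose in atria (log2FC 1.03 ± 0.12 SE, adjusted p = 4.19e-08; 0.99 to 1.00 without vehicle replicates 1 or 2 or CN03 replicate 3, and 0.94 after quantile normalization) with a log2FC of 0.81 in SAN.

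GNAO1, the Go subunit of neurons and heart, rose in culture and fell with CN03. SAN values of GNAO1 ran 5.52, 5.15, 5.48 and 5.80 at t0, 6.96, 6.71, 6.88 and 7.08 with vehicle, and 5.95, 5.36, 5.51 and 5.53 with CN03. Atrial values of GNAO1 ran 5.99, 5.75, 5.84 and 6.26 at t0, 7.15, 6.77, 6.98 and 7.07 with vehicle, and 5.99, 5.45, 5.70 and 6.30 with CN03. Vehicle libraries were highest in both tissues, with no overlap with t0 or CN03. The culture rise was 1.42 ± 0.16 (SE, adjusted p = 1.33e-07) in SAN and 1.03 ± 0.16 (SE, adjusted p = 7.8e-06) in atria, the latter 0.96 to 0.99 without t0 replicates 2 or 3 or vehicle replicate 1 and 1.00 after quantile normalization. The fall with CN03 was -1.32 ± 0.16 (SE, adjusted p = 1.23e-07) in SAN and -1.13 ± 0.16 (SE, adjusted p = 1.09e-06) in atria, or -1.0 without replicate 2 of CN03-treated atria.

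GNAT3, the gustducin subunit of taste cells, took the same course at a low level. Its SAN libraries read -0.60, -1.19, -1.64 and -2.07 at t0, 0.85, 0.89, 0.26 and 1.29 with vehicle, and -1.15, -0.77, -1.57 and -1.65 with CN03. Its atrial libraries read -1.64, -1.80, -1.66 and -2.32 at t0, -0.36, 1.28, 0.39 and 0.53 with vehicle, and -2.15, -1.52, -2.46 and -1.88 with CN03. The vehicle libraries did not overlap with t0 or CN03 in either tissue. GNAT3 rose in culture (log2FC 2.20 ± 0.36 SE, adjusted p = 2.63e-05 in SAN, log2FC 2.32 ± 0.36 SE, adjusted p = 8.73e-06 in atria) and fell with CN03 (log2FC -2.11 ± 0.36 SE, adjusted p = 1.84e-05 in SAN, log2FC -2.46 ± 0.36 SE, adjusted p = 2.05e-06 in atria). With a pseudocount of 1 these differences shrank to between 0.92 and 0.99 in size. GNAZ, the Gz subunit, gave CN03 log2FCs of 0.98 in SAN and -0.40 in atria with an interaction of 1.38 ± 0.44 (SE, adjusted p = 0.022), and this call was lost without replicate 2 of SAN vehicle (adjusted p = 0.051), replicate 3 of SAN CN03 (0.051) or replicate 1 of atrial CN03 (0.057). With a pseudocount of 1 that interaction was 0.88. With CN03 GNAZ was higher in SAN than in atria (log2FC 1.07 ± 0.31 SE, adjusted p = 0.00891), a difference of 0.80 to 0.96 without SAN CN03 replicate 3 or atrial CN03 replicates 1 or 4, 0.91 after quantile normalization and 0.70 with a pseudocount of 1. GNA11, GNA12, GNA13, GNAL and GNAT1 passed in no comparison.

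The RGS family by symbol was 21 genes, among them RGS7BP and RGS9BP, which are named for binding RGS proteins. Of the 21, 5 rose and 7 fell with CN03 in SAN, and again 5 rose and 7 fell in atria. That is 23.81% and 33.33% of the family in each tissue. Over all genes the shares were 10.2% and 17.1% in SAN and 13.8% and 15.6% in atria. The 5 that rose were RGS2, RGS3, RGS14, RGS17 and RGS20 in each tissue. RGS4, RGS5, RGS7, RGS8 and RGS18 fell in both, RGS6 and RGS16 in SAN, and RGS11 and RGS12 in atria.

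RGS20, a regulator of the Gz and Gi subunits, had the largest rise with CN03 of the 92 genes in both tissues. SAN values of RGS20 were -1.73, -2.05, -3.10 and -1.97 at t0, -0.57, -1.86, -0.85 and -1.55 with vehicle, and 2.87, 2.67, 3.00 and 3.21 with CN03. Atrial values of RGS20 were -2.31, -1.44, -2.43 and -1.58 at t0, -2.92, -2.89, -2.45 and -2.55 with vehicle, and 2.57, 2.75, 2.73 and 2.32 with CN03. Every CN03 library exceeded every other library by more than 2 log2 units. The rise was 4.14 ± 0.32 (SE, adjusted p = 7.39e-11) in SAN and 5.30 ± 0.32 (SE, adjusted p = 6.63e-13) in atria, or 17.7-fold and 39.3-fold. With culture alone SAN gave 1.01 (adjusted p = 0.0117), a call that quantile normalization reversed to -0.13 (adjusted p = 0.759) and that was lost without t0 replicate 3 (0.71), vehicle replicate 1 (0.79) or vehicle replicate 3 (0.89). With vehicle RGS20 was higher in SAN than in atria (log2FC 1.49 ± 0.32 SE, adjusted p = 0.000601), or 0.32 (adjusted p = 0.45) after quantile normalization and 0.33 with a pseudocount of 1.

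RGS5, which regulates Gi and Gq and is also a marker of pericytes, had the largest fall of its family. SAN libraries of RGS5 were at 4.77, 5.02, 4.98 and 5.01 at t0, 5.50, 5.99, 5.80 and 6.02 with vehicle, and 1.74, 2.81, 2.47 and 2.56 with CN03. Atrial libraries of RGS5 were at 3.63, 4.03, 3.23 and 3.90 at t0, 6.64, 6.93, 6.48 and 6.46 with vehicle, and 1.82, 1.54, 1.37 and 3.52 with CN03. The CN03 libraries lay below all vehicle and t0 libraries of SAN, and in atria below all vehicle libraries, with replicate 4 at 3.52 apart from the other 3. RGS5 fell with CN03 in SAN (log2FC -3.43 ± 0.31 SE, adjusted p = 9.94e-10) and in atria (log2FC -4.56 ± 0.31 SE, adjusted p = 5.12e-12), or 10.8-fold and 23.6-fold, and rose in culture in atria (log2FC 2.93 ± 0.31 SE, adjusted p = 2.77e-08) beside a SAN log2FC of 0.88. At t0 it was higher in SAN than in atria (log2FC 1.25 ± 0.31 SE, adjusted p = 0.00284). The interaction of 1.13 missed the adjusted p limit (0.0589) and passed it without SAN CN03 replicate 1 (1.35, adjusted p = 0.0265) or atrial CN03 replicate 4 (1.62, adjusted p = 0.000247). Of the smooth muscle and pericyte list, 6 of 8 genes were present and 0 had a mean log2 value below 0 in any group. The pericyte channel genes ABCC9 (-3.17 in SAN, -2.67 in atria) and KCNJ8 (-2.39 and -1.87) fell with CN03, the contractile genes ACTA2 (3.89 and 4.86) and TAGLN (3.54 and 5.34) rose in both tissues, MYH11 rose in atria (1.04), and PDGFRB gave 0.58 and 0.46. The sum of the list was between 242 and 342 with vehicle and between 1695 and 2408 with CN03 in SAN, and between 116 and 174 and between 1345 and 2261 in atria. The part of pericytes in the RGS5 result was not tested.

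RGS11, a partner of the Gβ5 subunit in the family that also holds RGS6 and RGS7, fell in atria. SAN values of RGS11 came to 1.48, 1.07, 0.34 and 0.54 at t0, 1.09, 1.69, 0.85 and 1.68 with vehicle, and 0.01, 0.94, 0.21 and 1.15 with CN03. Atrial values of RGS11 came to 2.23, 1.77, 1.00 and 2.21 at t0, 2.67, 3.10, 3.13 and 2.70 with vehicle, and -0.66, -0.95, 0.21 and -0.34 with CN03. In SAN the CN03 libraries overlapped with vehicle, and in atria the groups were apart by over 2 log2 units. CN03 gave -3.34 ± 0.32 (SE, adjusted p = 2.38e-09) in atria and -0.74 in SAN (adjusted p = 0.0428), and the interaction was the largest of the set (log2FC 2.59 ± 0.46 SE, adjusted p = 0.000197). RGS11 was lower in SAN than in atria with vehicle (log2FC -1.58 ± 0.32 SE, adjusted p = 0.000364) and higher with CN03 (log2FC 1.02 ± 0.32 SE, adjusted p = 0.0156), the latter a call lost without SAN CN03 replicates 2 or 4 or atrial CN03 replicates 1 or 2 (0.82 to 0.94) and after quantile normalization (0.77). It rose in culture in atria (log2FC 1.10 ± 0.32 SE, adjusted p = 0.00548), or 0.83 without t0 replicate 3. RGS6, which in mice limits CHRM2 signaling in the SAN, fell in SAN from 5.83 to 6.51 with vehicle to 4.38 to 5.46 with CN03 (log2FC -1.38 ± 0.18 SE, adjusted p = 4.46e-07). The atrial log2FC of RGS6 was -0.41 (adjusted p = 0.0494), and the interaction was -0.97 (adjusted p = 0.00692), inside the fold limit. With CN03 RGS6 was lower in SAN than in atria (log2FC -1.15 ± 0.18 SE, adjusted p = 3.12e-05), or -0.99 after quantile normalization. RGS7 fell in SAN (log2FC -1.85 ± 0.46 SE, adjusted p = 0.000935). In atria RGS7 fell by 1.33 (adjusted p = 0.0119), a call lost without vehicle replicate 1 (-0.86) or CN03 replicate 3 (-1.07, adjusted p = 0.052), after quantile normalization (-0.94), and when the fit held the compared groups alone (adjusted p = 0.0609). With vehicle RGS7 was higher in SAN than in atria (log2FC 1.16 ± 0.46 SE, adjusted p = 0.0427), and the call was lost in 6 of the 8 fits that left out 1 library.

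RGS2, which acts on Gq and is induced by many stimuli, rose at each step. It ranged from 3.20 to 3.58 at t0, from 5.77 to 6.21 with vehicle and from 7.27 to 7.68 with CN03 in SAN. In atria RGS2 ranged from 2.50 to 3.03, from 5.81 to 6.13 and from 7.71 to 8.14. No groups of the same tissue overlapped. The rise in culture was 2.59 ± 0.13 (SE, adjusted p = 1.7e-13) in SAN and 3.29 ± 0.13 (SE, adjusted p = 1.68e-15) in atria, and the further rise with CN03 was 1.43 ± 0.13 (SE, adjusted p = 6.94e-10) and 2.01 ± 0.13 (SE, adjusted p = 1.28e-12).

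RGS14, a Gi regulator with a Ras-binding domain, rose with CN03 by almost the same amount in SAN (log2FC 2.29 ± 0.11 SE, adjusted p = 4.81e-14) and atria (log2FC 2.22 ± 0.11 SE, adjusted p = 3.96e-14), and the interaction was 0.07 (SE 0.16, adjusted p = 0.789). Culture alone gave RGS14 log2FCs of -0.13 and 0.03. RGS3 rose in SAN (log2FC 1.39 ± 0.09 SE, adjusted p = 6.54e-12) and in atria (log2FC 2.20 ± 0.09 SE, adjusted p = 1.6e-15). RGS17 rose from a low level in SAN (log2FC 1.48 ± 0.36 SE, adjusted p = 0.000792) and in atria (log2FC 1.99 ± 0.36 SE, adjusted p = 2.97e-05), and both values fell below the limit with a pseudocount of 1 (0.84 and 0.79). With vehicle RGS17 was higher in SAN than in atria (log2FC 1.16 ± 0.36 SE, adjusted p = 0.0116), or 0.66 without atrial vehicle replicate 1 and 0.42 (adjusted p = 0.363) after quantile normalization.

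RGS4 and RGS16, small regulators of Gi and Gq, rose in culture in both tissues. RGS4 rose in culture in SAN (log2FC 1.97 ± 0.21 SE, adjusted p = 7.04e-08) and in atria (log2FC 3.35 ± 0.21 SE, adjusted p = 7.94e-12), and CN03 brought it down again (log2FC -2.33 ± 0.21 SE, adjusted p = 1.2e-09 in SAN, log2FC -1.74 ± 0.21 SE, adjusted p = 1.21e-07 in atria). At t0 RGS4 lay between 2.26 and 3.15 in SAN and between -0.12 and 0.49 in atria, a difference of 2.45 ± 0.21 (SE, adjusted p = 3.75e-09), and with vehicle the difference was 1.06 (adjusted p = 0.000298), or 0.96 without SAN vehicle replicate 4 or atrial vehicle replicate 2. RGS16 rose in culture by log2FCs of 2.24 and 2.55 (adjusted p = 7.57e-09 and 5.17e-10), fell with CN03 in SAN (log2FC -1.85 ± 0.21 SE, adjusted p = 4.17e-08) and gave -0.96 in atria (adjusted p = 0.000267). It was higher in SAN than in atria at t0 (log2FC 1.63 ± 0.21 SE, adjusted p = 1.45e-06) and with vehicle (log2FC 1.32 ± 0.21 SE, adjusted p = 2.05e-05), or 0.70 and 0.94 after quantile normalization. RGS8 rose in culture (1.48 and 3.27) and fell with CN03 (-1.13 with an adjusted p of 0.0064 and -1.21 with 0.00369). After quantile normalization its falls were -0.62 (adjusted p = 0.0709) and -0.82. RGS8 was higher in SAN than in atria at t0 (log2FC 2.81 ± 0.35 SE, adjusted p = 9.7e-07), and with vehicle and CN03 the differences were 1.02 and 1.10 (adjusted p = 0.0221 and 0.0159), both inside the limit after quantile normalization (0.75 and 0.95), the former also without SAN vehicle replicates 3 or 4 or atrial vehicle replicates 1 or 4 (0.86 to 1.00).

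**Figure D3:**
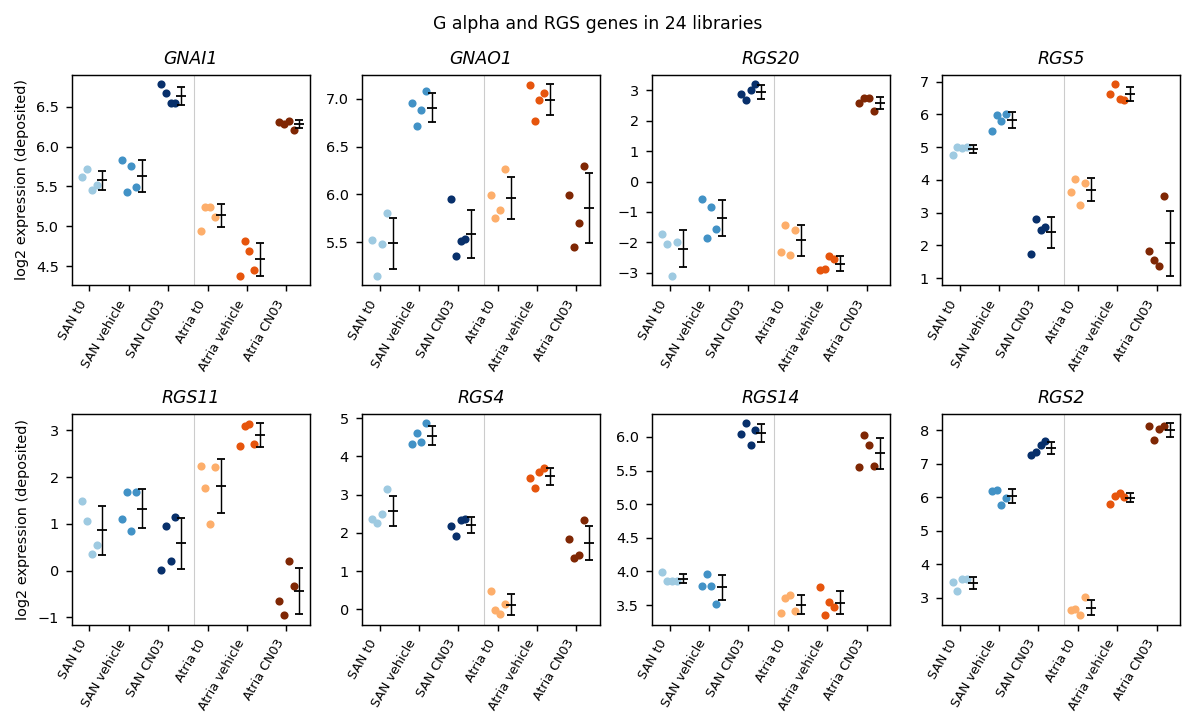
The y axis is the deposited log2 expression of 2 G alpha and 6 RGS genes and the x axis the 6 groups, with points for libraries and the mean and SD of 4 libraries. RGS20 and RGS14 are highest with CN03 in both tissues, RGS2 rises at each step, and RGS4 and GNAO1 peak with vehicle in both tissues.

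RGS1 and RGS18 are known from leukocytes and platelets. RGS1 rose in culture in SAN (log2FC 4.67 ± 0.29 SE, adjusted p = 7.56e-12) and in atria (log2FC 4.38 ± 0.29 SE, adjusted p = 1.27e-11), the largest culture rise of its family, and CN03 gave -0.13 and 0.13 (adjusted p = 0.703 and 0.699). It was lower in SAN than in atria at t0 (-1.60), with vehicle (-1.31) and with CN03 (-1.56). RGS18 fell with CN03 in SAN (log2FC -2.38 ± 0.24 SE, adjusted p = 4.34e-09) and in atria (log2FC -2.40 ± 0.24 SE, adjusted p = 3.14e-09), with culture log2FCs of -0.24 and -0.36. Of the 11 of 12 macrophage and leukocyte markers present, 4 rose and 0 fell in culture in SAN and 6 rose and 0 fell in atria. Over all genes 8.01% rose in culture in SAN and 10.1% in atria. At t0 8 of the 11 were higher in SAN than in atria, with vehicle 6 and with CN03 2, and 0 were lower. Over all genes 6.86%, 7.66% and 3.84% were higher in SAN. With CN03 10 of the 11 fell in SAN and 8 in atria, while PTPRC, the pan-leukocyte marker, gave -0.07 and 0.25. Over all genes 17.1% fell with CN03 in SAN and 15.6% in atria. The summed level of the list was 111 to 150 at t0, 269 to 314 with vehicle and 64.4 to 84.9 with CN03 in SAN, and 62.2 to 85.2, 122 to 195 and 65.5 to 75.8 in atria. With CN03, 4 of the 11 had a mean log2 value below 0 in SAN and 5 in atria. The part of leukocytes in the values of RGS1 and RGS18 was not tested.

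RGS12, a large scaffold-like member, fell in atria with CN03 (log2FC -1.44 ± 0.12 SE, adjusted p = 1.75e-10) and gave -0.30 in SAN (adjusted p = 0.0262), with an interaction of 1.13 ± 0.17 (SE, adjusted p = 3.32e-05). It was lower in SAN than in atria at t0 (log2FC -1.11 ± 0.12 SE, adjusted p = 1.04e-07), where the ranges were 4.27 to 4.60 and 5.13 to 5.71, and with CN03 the ranges overlapped. RGS9 rose in culture in atria (1.39), RGS7BP, a membrane anchor of the RGS7 group, rose there as well (1.20), RGS21 rose there by 1.06 (0.92 to 0.96 without t0 replicates 2 or 4 or vehicle replicate 4), and RGS10 fell there by 1.16 (0.98 without t0 replicate 4). RGS19 was lower in SAN than in atria with CN03 (-1.19). RGS7BP was lower in SAN than in atria with vehicle (log2FC -1.66 ± 0.13 SE, adjusted p = 4.37e-10) and with CN03 (log2FC -1.03 ± 0.13 SE, adjusted p = 1.07e-06), the latter -0.89 after quantile normalization, -0.96 without SAN CN03 replicate 2 and -0.90 without atrial CN03 replicate 1. RGS9BP passed in no comparison. A pseudocount of 1 also brought inside the limit the CN03 falls of RGS8 (-0.91 and -0.81) and of RGS7 in atria (-0.88), the culture rises of RGS11 (0.90) and RGS21 (0.68) in atria and of RGS20 in SAN (0.24), and the tissue differences of RGS1 (-0.69), RGS8 with vehicle and CN03 (0.83 and 0.72), RGS11 with CN03 (0.52), RGS16 (0.55 and 0.95), RGS7 (0.90), RGS4 with vehicle (1.00) and RGS17 with vehicle (0.36).

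Of 7 adenylyl cyclases, the enzymes that make cAMP, 1 rose and 4 fell with CN03 in SAN, and 1 rose and 2 fell in atria. These were 14.29% and 57.14% in SAN, beside 10.2% and 17.1% over all genes. In atria they were 14.29% and 28.57%, beside 13.8% and 15.6%. ADCY5, a main cardiac cyclase that Gi and calcium inhibit, fell in both tissues. In SAN ADCY5 stood at 5.45, 5.12, 5.25 and 5.55 at t0, 5.12, 5.33, 5.46 and 5.68 with vehicle, and 3.99, 4.15, 3.86 and 4.00 with CN03. In atria ADCY5 stood at 5.74, 5.19, 5.46 and 5.54 at t0, 5.79, 5.81, 5.59 and 5.60 with vehicle, and 3.79, 3.74, 3.51 and 3.78 with CN03. The CN03 libraries, 3.51 to 4.15, lay more than 0.9 log2 units below all other libraries. The fall was -1.39 ± 0.12 (SE, adjusted p = 5.65e-10) in SAN and -1.99 ± 0.12 (SE, adjusted p = 7.79e-13) in atria, or 2.63-fold and 3.97-fold. Culture gave 0.05 and 0.21 (adjusted p = 0.739 and 0.135).

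ADCY6, the close relative of ADCY5 and the other main cardiac cyclase, passed in no comparison. Its SAN libraries had 4.71, 4.63, 4.92 and 4.85 at t0, 5.33, 5.48, 5.08 and 5.04 with vehicle, and 4.96, 5.29, 4.89 and 5.03 with CN03. Its atrial libraries had 4.39, 4.15, 4.32 and 4.31 at t0, 4.57, 4.50, 4.76 and 4.61 with vehicle, and 5.09, 5.04, 4.98 and 4.97 with CN03. Vehicle and CN03 overlapped in SAN and not in atria. The CN03 log2FC was -0.19 in SAN (SE 0.10, adjusted p = 0.0996) and 0.41 in atria (SE 0.10, adjusted p = 0.000808).

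ADCY3, which is stimulated through Golf in olfactory neurons and is also made in the heart, fell as well. SAN values of ADCY3 stood at 4.47, 4.15, 4.31 and 4.46 at t0, 3.52, 3.80, 3.91 and 4.04 with vehicle, and 2.15, 2.62, 1.95 and 2.19 with CN03. Atrial values of ADCY3 stood at 5.58, 5.03, 5.45 and 5.39 at t0, 4.65, 4.88, 5.21 and 4.35 with vehicle, and 2.87, 3.03, 2.47 and 2.34 with CN03. No CN03 library overlapped with a vehicle or t0 library of its tissue. ADCY3 fell with CN03 in SAN (log2FC -1.59 ± 0.18 SE, adjusted p = 4.24e-08) and in atria (log2FC -2.10 ± 0.18 SE, adjusted p = 3.37e-10). At t0 it was lower in SAN than in atria (log2FC -1.01 ± 0.18 SE, adjusted p = 0.0001), a value at the limit that was -0.94 to -0.98 without SAN t0 replicate 2 or atrial t0 replicates 1 or 3.

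ADCY8, a cyclase stimulated by calcium and calmodulin and known as abundant in the SAN of mammals, was the cyclase that was higher in SAN. SAN libraries of ADCY8 gave 3.34, 2.00, 2.23 and 2.74 at t0, 4.63, 3.77, 4.31 and 4.15 with vehicle, and 1.64, 1.11, 1.29 and 1.89 with CN03. Atrial libraries of ADCY8 gave 0.61, 0.06, 0.02 and -0.12 at t0, 1.23, 1.00, 2.03 and 2.13 with vehicle, and 0.75, 0.57, 0.56 and 0.95 with CN03. At t0 and with vehicle every SAN library was above every atrial library, and this held with CN03 by a narrower margin, 1.11 to 1.89 against 0.56 to 0.95. ADCY8 was higher in SAN at t0 (log2FC 2.43 ± 0.28 SE, adjusted p = 3.06e-07) and with vehicle (log2FC 2.62 ± 0.28 SE, adjusted p = 9.04e-08), and with CN03 the difference was 0.78 (adjusted p = 0.0316). It rose in culture in SAN (log2FC 1.64 ± 0.28 SE, adjusted p = 3.97e-05) and in atria (log2FC 1.45 ± 0.28 SE, adjusted p = 0.00011). With CN03 it fell in SAN (log2FC -2.73 ± 0.28 SE, adjusted p = 8.35e-09), 6.64-fold, and gave -0.89 in atria (adjusted p = 0.00677; -1.01 and -1.09 without vehicle replicates 1 and 2). The interaction was -1.84 ± 0.40 (SE, adjusted p = 0.00134).

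ADCY7 fell with CN03 in SAN (log2FC -1.52 ± 0.34 SE, adjusted p = 0.000394) with an atrial log2FC of 0.04, from SAN values of 1.30 at most in all groups. In atria it fell in culture (log2FC -2.19 ± 0.34 SE, adjusted p = 8.49e-06), and it was lower in SAN than in atria at t0 (log2FC -1.41 ± 0.34 SE, adjusted p = 0.00235) and, at the limit, with CN03 (log2FC -1.0 ± 0.34 SE, adjusted p = 0.0239), a call lost without SAN CN03 replicate 1 (-0.65) or atrial CN03 replicates 1, 2 or 4 (-0.91 to -0.99). After quantile normalization its fall with CN03 in SAN was -0.73. Its interaction was -1.56 ± 0.48 (SE, adjusted p = 0.0192), and after quantile normalization -1.16 with an adjusted p of 0.0616. ADCY2 fell in culture, from 3.95 to 4.54 at t0 to 1.34 to 1.90 with vehicle in SAN (log2FC -2.43 ± 0.21 SE, adjusted p = 2.46e-09) and from 2.76 to 3.38 to 0.53 to 1.69 in atria (log2FC -1.88 ± 0.21 SE, adjusted p = 7.05e-08). With CN03 ADCY2 rose by 1.06 in SAN (adjusted p = 0.000109) and 1.01 in atria (adjusted p = 0.000174). These values became 0.94 without replicate 4 of SAN vehicle, and 0.78 to 0.98 without atrial vehicle replicates 1 or 4 or atrial CN03 replicate 3. ADCY9 passed in no comparison (0.57 and 0.51 with CN03). A pseudocount of 1 brought inside the limit the CN03 rises of ADCY2 (0.86 and 0.76), the calls of ADCY7 with CN03 in SAN (-0.70), between tissues with CN03 (-0.41) and for the interaction (-0.72), the culture rise of ADCY8 in atria (0.95) and the t0 difference of ADCY3 (-0.98).

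Of 21 genes named as PDEs, 0 rose and 2 fell with CN03 in SAN, and 2 rose and 3 fell in atria. The falls in SAN were 9.52%, beside 17.1% over all genes, where 10.2% rose. In atria 9.52% rose and 14.29% fell, beside 13.8% and 15.6%. In culture 7 rose in SAN and 9 in atria, and 0 fell in either tissue. Those rises were 33.33% and 42.86%, beside 8.01% and 10.1% over all genes. PDE3A and PDE4D, the forms best known for cAMP in heart muscle, passed in no comparison.

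PDE4D, which breaks down cAMP near beta adrenergic receptors and ryanodine receptors, read in SAN 4.22, 4.51, 4.31 and 4.66 at t0, 4.67, 5.04, 4.98 and 5.38 with vehicle, and 4.43, 4.39, 4.94 and 4.33 with CN03. Atrial PDE4D read 4.25, 3.54, 4.30 and 4.26 at t0, 4.76, 5.02, 4.61 and 4.95 with vehicle, and 5.21, 4.85, 5.29 and 4.92 with CN03. Cultured vehicle libraries were above t0 in both tissues, narrowly in SAN, where the nearest libraries stood at 4.67 and 4.66. Its log2FC in culture was 0.59 in SAN and 0.75 in atria (adjusted p = 0.00641 and 0.000685), and with CN03 -0.49 and 0.23 (adjusted p = 0.0137 and 0.237). PDE3A, which cGMP inhibits, read in SAN 4.25, 5.07, 4.30 and 4.17 at t0, 3.84, 4.70, 4.38 and 4.73 with vehicle, and 3.92, 4.73, 4.53 and 3.95 with CN03. Atrial PDE3A read 4.96, 4.55, 4.92 and 4.66 at t0, 5.24, 5.52, 5.08 and 5.01 with vehicle, and 4.75, 4.69, 4.45 and 4.54 with CN03. CN03 gave PDE3A -0.13 in SAN, with overlap, and -0.61 in atria, without (adjusted p = 0.593 and 0.0121).

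PDE4B, a cAMP-specific enzyme, rose in culture in SAN (log2FC 1.37 ± 0.10 SE, adjusted p = 2.69e-10) and in atria (log2FC 1.48 ± 0.10 SE, adjusted p = 4.57e-11), with CN03 log2FCs of -0.01 and 0.31. PDE4C rose in culture by 1.38 in SAN and 1.12 in atria, the latter 0.96 without vehicle replicate 1. PDE1A, a calmodulin-activated enzyme, rose in culture by 1.46 in SAN and 1.80 in atria, and PDE1B rose in atria by 1.91. PDE1A was higher in SAN than in atria at t0 (log2FC 1.16 ± 0.29 SE, adjusted p = 0.00269), or 0.82 without SAN t0 replicate 1, 0.97 without atrial t0 replicate 4 and 0.79 after quantile normalization. With CN03 that difference was 1.10 (adjusted p = 0.00391), or 0.98 without atrial CN03 replicate 1. PDE9A, specific for cGMP, rose in SAN by 1.66. PDE10A, which acts on both cyclic nucleotides, rose in atria by 1.49 and was lower in SAN than in atria with vehicle (log2FC -1.24 ± 0.13 SE, adjusted p = 7.44e-08). PDE6B, a rod photoreceptor subunit, rose by 3.09 in SAN and 3.70 in atria from low values, and with a pseudocount of 1 the atrial value was 0.75. At t0 PDE6B gave 1.39 between SAN and atria with an adjusted p of 0.0754. The adjusted p was 0.0318 once the replicate number entered the fit of all 24 libraries as a block. PDE6C, the cone photoreceptor enzyme, rose in culture in atria (log2FC 1.20 ± 0.26 SE, adjusted p = 0.000374; 0.95 without vehicle replicate 4) and fell there with CN03 (log2FC -1.03 ± 0.26 SE, adjusted p = 0.00116; -0.78 to -0.98 without vehicle replicate 4 or CN03 replicates 1 or 3, and -0.66 after quantile normalization). PDE3B, PDE5A, PDE6D, PDE6G, PDE7A and PDE8B passed in no comparison.

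PDE6H, the inhibitory subunit of the cone photoreceptor enzyme and not itself a phosphodiesterase, had the largest atrial change of the PDE family both with CN03 and in culture. SAN libraries of PDE6H lay at -0.36, -1.61, -2.42 and -2.34 at t0, 0.35, 0.81, 0.48 and 0.06 with vehicle, and -2.61, -3.07, -4.08 and -2.14 with CN03. Atrial libraries of PDE6H lay at -1.11, -0.39, -2.16 and -2.24 at t0, 4.79, 4.28, 3.56 and 4.78 with vehicle, and -0.46, -1.10, -3.06 and -0.41 with CN03. Only the atrial vehicle libraries rose above 3, and the vehicle libraries of each tissue were apart from their CN03 libraries. In culture PDE6H rose by 2.11 in SAN (SE 0.56, adjusted p = 0.00306) and 5.83 in atria (SE 0.56, adjusted p = 5.98e-09). With CN03 it fell by 3.40 in SAN (adjusted p = 9.59e-06) and by 5.61 in atria (adjusted p = 4.12e-09), or 10.6-fold and 48.8-fold. The interaction (log2FC 2.21 ± 0.79 SE, adjusted p = 0.0408) was lost, with adjusted p up to 0.0976, in 11 of 16 fits that left out 1 library. PDE6H was lower in SAN than in atria with vehicle (log2FC -3.92 ± 0.56 SE, adjusted p = 5.08e-06) and with CN03 (log2FC -1.72 ± 0.56 SE, adjusted p = 0.0183), the latter with an adjusted p of 0.0696 to 0.0753 without SAN CN03 replicate 3 or atrial CN03 replicates 1 or 4.

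PDE1C, a calmodulin-activated enzyme for cAMP and cGMP in heart and smooth muscle, fell in atria. SAN libraries of PDE1C showed 2.69, 2.61, 2.32 and 2.26 at t0, 2.25, 3.05, 2.48 and 3.26 with vehicle, and 1.84, 2.32, 2.22 and 1.01 with CN03. Atrial libraries of PDE1C showed 2.87, 2.97, 2.83 and 3.57 at t0, 4.54, 5.30, 4.52 and 4.64 with vehicle, and 1.99, 1.87, 1.78 and 1.94 with CN03. The atrial vehicle libraries were above all others of this gene. PDE1C rose in culture in atria (log2FC 1.69 ± 0.25 SE, adjusted p = 4.4e-06) and fell there with CN03 (log2FC -2.85 ± 0.25 SE, adjusted p = 5.2e-10). In SAN CN03 gave -0.91 (adjusted p = 0.00261), or -1.0 to -1.08 without vehicle replicates 1 or 3 or CN03 replicates 2 or 3. With vehicle it was lower in SAN than in atria (log2FC -1.99 ± 0.25 SE, adjusted p = 1.01e-06). The interaction was 1.94 ± 0.36 (SE, adjusted p = 0.000293).

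PDE7B, a cAMP-specific enzyme, rose in atria with CN03. SAN libraries of PDE7B held 3.48, 4.05, 3.60 and 3.73 at t0, 4.64, 4.67, 4.79 and 4.87 with vehicle, and 4.85, 5.32, 5.36 and 4.86 with CN03. Atrial libraries of PDE7B held 2.48, 2.73, 2.73 and 3.17 at t0, 3.57, 3.73, 3.27 and 3.82 with vehicle, and 5.88, 5.54, 5.90 and 5.30 with CN03. At t0 and with vehicle the SAN libraries were above those of atria, and with CN03 the ranges overlapped. The CN03 log2FC was 2.06 ± 0.17 (SE, adjusted p = 9.65e-11) in atria and 0.35 in SAN (adjusted p = 0.0598), with an interaction of -1.70 ± 0.23 (SE, adjusted p = 1.26e-05). In SAN it rose in culture at the limit (1.03, adjusted p = 1.76e-05; 0.95 to 0.99 without t0 replicates 1 or 3 or vehicle replicate 4). With vehicle PDE7B was higher in SAN than in atria (log2FC 1.15 ± 0.17 SE, adjusted p = 5.76e-06).

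PDE8A and PDE11A were higher in SAN than in atria both at t0 and with vehicle. PDE8A, a high-affinity cAMP enzyme, lay between 4.12 and 4.24 in SAN and between 2.11 and 2.43 in atria at t0 (log2FC 1.90 ± 0.11 SE, adjusted p = 6.52e-12), and the difference with vehicle was 1.56 ± 0.11 (SE, adjusted p = 1.93e-10). With CN03 it rose in atria to between 3.92 and 4.00 (log2FC 1.04 ± 0.11 SE, adjusted p = 1.58e-08) and gave -0.20 in SAN, so that the difference between tissues with CN03 was 0.32 (adjusted p = 0.0267) and the interaction -1.24 ± 0.16 (SE, adjusted p = 5.97e-06). PDE11A, which acts on both cyclic nucleotides, was higher in SAN at t0 (log2FC 2.14 ± 0.24 SE, adjusted p = 2.63e-07) and with vehicle (log2FC 1.81 ± 0.24 SE, adjusted p = 2.44e-06). With CN03 PDE11A fell in SAN from 1.78 to 2.23 with vehicle to -0.33 to 0.76 (log2FC -1.87 ± 0.24 SE, adjusted p = 3.88e-07), with -0.82 in atria (adjusted p = 0.0045). Its interaction (log2FC -1.04 ± 0.35 SE, adjusted p = 0.0272) was lost without SAN vehicle replicate 4 (-1.0), SAN CN03 replicate 1 (-0.86), atrial vehicle replicate 3 (-0.83) or atrial CN03 replicate 4 (-0.97), and was -0.94 (adjusted p = 0.0617) after quantile normalization. A pseudocount of 1 brought inside the limit that interaction (-0.86), the rises of PDE8A with CN03 in atria (0.95) and of PDE7B (0.97) and PDE6H (0.80) in culture in SAN, those of PDE4C (0.90) and PDE6C (0.79) in culture in atria, the CN03 fall of PDE6C (-0.70), and the tissue differences of PDE1A (0.86 and 0.94) and of PDE6H with CN03 (-0.39).

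**Figure D4:**
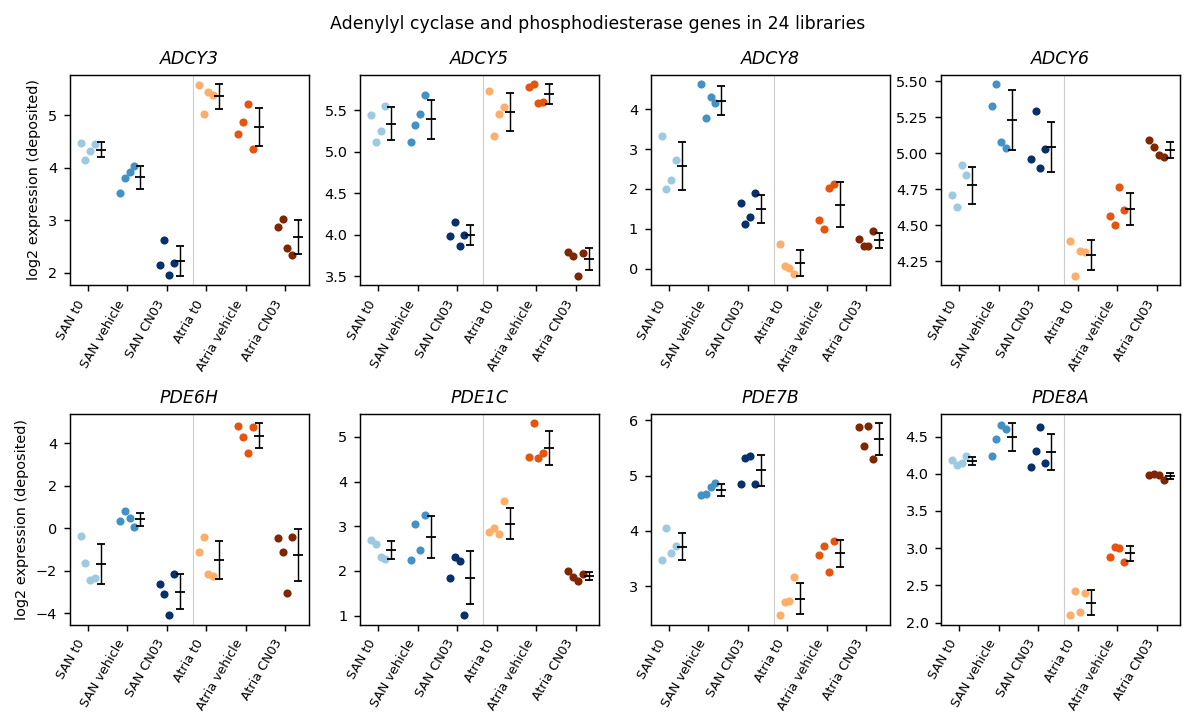
The y axis is the deposited log2 expression of 4 cyclase and 4 phosphodiesterase genes and the x axis the 6 groups, with points for libraries and the mean and SD of 4 libraries. ADCY3 and ADCY5 drop with CN03 in both tissues while ADCY6 stays between 4.15 and 5.48, and the SAN lead of ADCY8 and PDE8A at t0 narrows with CN03.

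The PKA subunits were 6 genes, 2 catalytic and 4 regulatory. With CN03 none passed in SAN, and PRKAR2B alone passed in atria, where it rose. That rise was 25.0% of the 4 regulatory subunits. Over all genes 10.2% rose and 17.1% fell with CN03 in SAN, against 13.8% and 15.6% in atria. With no fold limit all 4 regulatory subunits passed the adjusted p limit in each tissue. By that looser rule 8843 of all 12422 genes passed in SAN and 9001 in atria. PRKAR2B, a type II regulatory subunit that inhibits the kinase until cAMP binds, had the largest difference between tissues of the 92 genes. In SAN PRKAR2B read 5.43, 5.18, 5.50 and 5.28 at t0, 5.04, 4.99, 5.17 and 5.49 with vehicle, and 5.71, 5.84, 5.90 and 5.66 with CN03. In atria PRKAR2B read 1.37, 1.48, 0.96 and 1.15 at t0, -1.08, 0.25, 0.47 and -0.42 with vehicle, and 2.79, 2.54, 2.79 and 2.43 with CN03. The lowest SAN library, at 4.99, lay above the highest atrial library, at 2.79. PRKAR2B was higher in SAN at t0 (log2FC 4.11 ± 0.22 SE, adjusted p = 1.21e-12), with vehicle (log2FC 5.37 ± 0.22 SE, adjusted p = 1.77e-14) and with CN03 (log2FC 3.14 ± 0.22 SE, adjusted p = 2.49e-10), or 17.2-fold, 41.3-fold and 8.82-fold. In atria it fell in culture (log2FC -1.44 ± 0.22 SE, adjusted p = 5.45e-06) and rose with CN03 above its t0 level (log2FC 2.83 ± 0.22 SE, adjusted p = 4.61e-11), while SAN gave -0.18 and 0.61. With a pseudocount of 1 the culture fall was -0.82. The interaction was -2.23 ± 0.31 (SE, adjusted p = 1.39e-05).

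PRKAR1A, the widely made type I regulatory subunit, passed in no comparison. SAN values of PRKAR1A ran 8.27, 8.42, 8.32 and 8.21 at t0, 8.64, 8.87, 8.80 and 8.91 with vehicle, and 8.45, 8.59, 8.68 and 8.40 with CN03. Atrial values of PRKAR1A ran 8.11, 8.24, 8.22 and 8.15 at t0, 8.63, 8.57, 8.42 and 8.48 with vehicle, and 9.06, 8.73, 8.86 and 8.88 with CN03. The lowest of these libraries was 8.11 and the highest 9.06. CN03 gave -0.28 in SAN (SE 0.08) and 0.36 in atria (SE 0.08), with an interaction of -0.64 (adjusted p = 0.000223) inside the limit. PRKAR2A fell in culture in SAN (log2FC -1.18 ± 0.20 SE, adjusted p = 4.56e-05) and in atria (log2FC -1.04 ± 0.20 SE, adjusted p = 0.000135), or -0.99 without SAN t0 replicate 2 and -0.95 to -0.99 without atrial t0 replicates 1 or 2 or atrial vehicle replicate 4. PRKAR1B, the neural type I subunit, passed in no comparison (-0.84 and -0.47 with CN03).

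Of the catalytic subunits, PRKACB ranged from 6.83 to 7.45 over all 24 libraries and passed in no comparison. PRKACA rose in culture. In SAN PRKACA had -0.28, -0.97, -0.87 and -0.09 at t0, 0.81, 1.18, 0.68 and 0.43 with vehicle, and -0.11, 0.95, 0.53 and 0.56 with CN03. In atria PRKACA had -1.51, -1.36, -0.75 and -1.68 at t0, 1.55, 0.60, 0.33 and 0.74 with vehicle, and 1.22, 0.32, 0.28 and 1.26 with CN03. The t0 libraries did not overlap with vehicle in either tissue, and in SAN 1 CN03 library, at -0.11, lay below the highest t0 library, at -0.09. The rise was 1.33 ± 0.32 (SE, adjusted p = 0.00132) in SAN and 2.13 ± 0.32 (SE, adjusted p = 4.41e-06) in atria, or 0.68 and 0.98 with a pseudocount of 1, and CN03 gave -0.29 and -0.04 (adjusted p = 0.417 and 0.926).

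Of 13 AKAPs, 3 rose and 0 fell with CN03 in SAN, and 3 rose and 1 fell in atria. The rises were 23.08% in each tissue, beside 10.2% in SAN and 13.8% in atria over all genes. Falls in atria were 7.69%, beside 15.6%, and over all genes 17.1% fell in SAN. AKAP5, AKAP6 and AKAP9 rose in both tissues. AKAP5, which ties PKA and calcineurin to membrane channels and beta adrenergic receptors, lay in SAN at 2.79, 2.73, 2.86 and 3.27 at t0, 2.62, 1.84, 2.35 and 0.86 with vehicle, and 3.49, 3.57, 4.30 and 4.19 with CN03. In atria AKAP5 lay at 1.53, 2.24, 2.37 and 1.97 at t0, 0.92, 0.67, 0.46 and 1.05 with vehicle, and 4.04, 4.19, 4.65 and 4.24 with CN03. The CN03 libraries were above all others of their tissue. AKAP5 rose with CN03 in SAN (log2FC 1.97 ± 0.28 SE, adjusted p = 1.33e-06) and in atria (log2FC 3.51 ± 0.28 SE, adjusted p = 9.09e-11), or 3.91-fold and 11.4-fold, and the interaction was -1.54 ± 0.40 (SE, adjusted p = 0.00559). In culture it fell in atria (log2FC -1.26 ± 0.28 SE, adjusted p = 0.00051) and gave -0.99 in SAN, a value of -1.01 to -1.23 without t0 replicates 1, 2 or 3 or vehicle replicates 1 or 3. With vehicle AKAP5 was higher in SAN than in atria (log2FC 1.15 ± 0.28 SE, adjusted p = 0.002), or 0.91 without SAN vehicle replicate 1 and 0.79 after quantile normalization. With a pseudocount of 1 the atrial fall was -0.91 and the tissue difference 0.84.

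AKAP6, the anchor at the nuclear envelope and sarcoplasmic reticulum of muscle cells, fell in culture and rose again with CN03. SAN libraries of AKAP6 reached 3.21, 3.86, 3.43 and 2.58 at t0, 1.24, 1.48, 1.98 and 2.12 with vehicle, and 3.88, 4.00, 3.77 and 2.97 with CN03. Atrial libraries of AKAP6 reached 4.41, 4.82, 4.71 and 4.22 at t0, 2.75, 3.18, 2.56 and 2.18 with vehicle, and 4.15, 4.45, 4.13 and 3.70 with CN03. Vehicle libraries were the lowest in each tissue, with no overlap. The culture fall was -1.57 ± 0.27 (SE, adjusted p = 3.54e-05) in SAN and -1.87 ± 0.27 (SE, adjusted p = 2.17e-06) in atria, and the rise with CN03 was 1.95 ± 0.27 (SE, adjusted p = 6.74e-07) and 1.44 ± 0.27 (SE, adjusted p = 3.88e-05). At t0 AKAP6 was lower in SAN than in atria (log2FC -1.27 ± 0.27 SE, adjusted p = 0.000586).

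AKAP9, an anchor at the Golgi and centrosome that in mammals also binds the KCNQ1 potassium channel, held in SAN 6.77, 6.56, 6.73 and 7.04 at t0, 6.52, 6.07, 6.27 and 6.68 with vehicle, and 7.76, 7.88, 7.76 and 7.91 with CN03. In atria AKAP9 held 6.43, 6.59, 6.60 and 6.76 at t0, 5.92, 5.85, 5.91 and 5.94 with vehicle, and 7.61, 8.02, 7.67 and 7.59 with CN03. No CN03 library overlapped with a t0 or vehicle library. The rise was 1.44 ± 0.11 (SE, adjusted p = 1.17e-10) in SAN and 1.82 ± 0.11 (SE, adjusted p = 1.37e-12) in atria. AKAP10, a mitochondrial anchor with RGS-like domains, took the opposite course. It rose in culture in SAN (log2FC 1.22 ± 0.09 SE, adjusted p = 3.95e-10) and atria (log2FC 1.81 ± 0.09 SE, adjusted p = 2.69e-13), fell with CN03 in atria (log2FC -1.34 ± 0.09 SE, adjusted p = 1.02e-11) and gave -0.95 in SAN (adjusted p = 4.86e-09). AKAP12 was higher in SAN than in atria at t0 (log2FC 1.14 ± 0.14 SE, adjusted p = 6.08e-07) and with vehicle (log2FC 1.08 ± 0.14 SE, adjusted p = 1.05e-06). AKAP13, which is also a guanine nucleotide exchange factor for RhoA, passed in no comparison, with CN03 log2FCs of 0.37 in SAN and 0.89 in atria. AKAP1, AKAP7, AKAP8, AKAP8L, AKAP11, AKAP17A and AKAP17B passed in no comparison either.

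**Figure D5:**
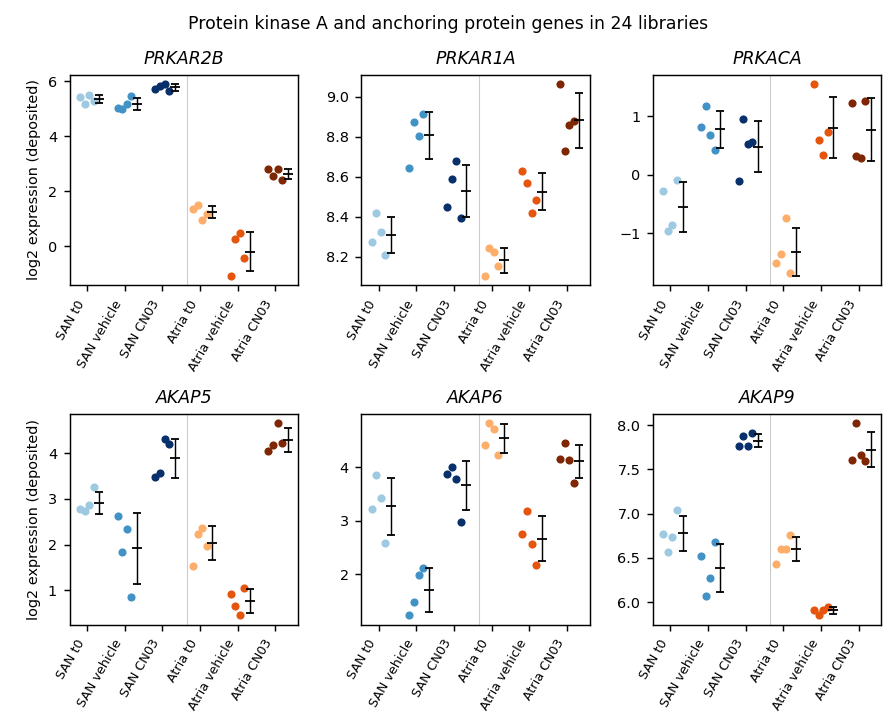
The y axis is the deposited log2 expression of 3 PKA subunit and 3 AKAP genes and the x axis the 6 groups, with points for libraries and the mean and SD of 4 libraries. PRKAR2B sits between 4.99 and 5.90 in SAN and between -1.08 and 2.79 in atria, AKAP5 and AKAP9 are highest with CN03, and AKAP6 is lowest with vehicle in both tissues.

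The neighbours of these genes in the pathway were counted from 7 lists. For comparison, 10.2% of all genes rose and 17.1% fell with CN03 in SAN, and 13.8% and 15.6% in atria. Of 18 cAMP effectors and PKA inhibitors, 3 rose and 3 fell with CN03 in SAN, and 4 rose and 3 fell in atria, with medians of 0.289 and 0.190. PRKX, a kinase close to PKA, rose (1.39 in SAN, 2.49 in atria), POPDC3, a cAMP-binding membrane protein, fell (-1.58 and -1.97), and so did the PKA inhibitor PKIB (-1.45 and -1.69) and RAPGEF3, the cAMP-activated exchange factor Epac (-1.45 and -1.25). CREM, a cAMP-responsive transcription factor whose short form ICER is a target of cAMP, rose in culture (2.62 in SAN, 2.30 in atria). Its CN03 values were 0.80 and 0.93, and it is named after its values were seen. In culture 2 of the 18 genes rose and 0 fell in each tissue, with medians of 0.095 in SAN and -0.115 in atria. Over all genes 8.01% rose in culture in SAN and 10.1% in atria. The part of cAMP in the rise of CREM was not tested. Of 12 beta and gamma subunits, 1 rose and 1 fell with CN03 in SAN and 2 rose in atria, among them GNG4 (1.79 and 1.80). Of 6 receptor kinases and arrestins, GRK5 was the only one to pass with CN03 (1.17 in SAN, 1.49 in atria). Of 6 phospholipase C beta and IP3 receptor genes, ITPR3 rose (2.11 and 2.83) and PLCB2 fell in SAN (-1.40).

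Of 8 genes listed under cGMP makers and kinases, 1 rose and 3 fell in SAN and 2 rose and 2 fell in atria. That list also held nitric oxide synthases and a clearance receptor, named below, which are neither. PRKG1, the main cGMP kinase of smooth muscle, rose (1.56 and 2.21), NOS1, the neuronal nitric oxide synthase, fell (-2.53 and -1.98), NPR3, the clearance receptor of natriuretic peptides, fell (-1.97 and -2.98), and NOS3, the endothelial synthase, rose in atria (2.32). Of 16 peptide and amine receptors that couple to Gs, 3 rose and 5 fell in each tissue. The histamine receptor HRH2 fell (-3.53 and -3.87), as did VIPR1, a receptor for vasoactive intestinal peptide (-2.25 and -2.69). The corticotropin-releasing hormone receptor CRHR2 rose (2.48 and 2.32), and VIPR2 rose in atria (3.28).

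Of 12 nicotinic receptor and transmitter handling genes, 0 rose and 7 fell in SAN and 1 rose and 5 fell in atria, with medians of -1.121 and -0.897 where all genes had -0.056 and -0.012. CHRNA4, a neuronal nicotinic subunit, fell (-5.52 in SAN, -3.34 in atria), and so did BCHE, which hydrolyses choline esters (-2.39 and -3.40). ACHE, which ends the acetylcholine signal, fell in SAN (-2.21) and gave -0.83 in atria. CHRNA7 rose in atria (3.15) and gave 0.16 in SAN. Several of these genes are known from neurons, and the counts for the neuron markers are given above with the other lists.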

How the data were processed

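Whole-tissue RNA of SAN and right atria was sequenced in 24 libraries, 6 groups of 4. The authors deposited 1 table of log2 expression values. The methods and the submitters' processing notes name FastQC, Kallisto, edgeR, limma and the chicken build GRCg7b, with no versions. How the log2 values were scaled and filtered, and the number of reads per library, are not given in the sources used here, so depth and counting error are unknown. Replicates of a group correlated at 0.977 or more. Groups were taken from the sample labels. The replicates are stated to be biological.

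The deposited values were fitted without further change with limma 3.58.1 in R 4.3.3, with a mean for each group, a mean-variance trend and 18 residual degrees of freedom. P-values of each of 8 comparisons were adjusted by Benjamini-Hochberg over 12422 genes. A call needed an adjusted p below 0.05 and a log2FC past 1. The fit was tested on simulated data. A single row without a symbol was left out. Plots used Python 3.11.15 and matplotlib 3.10.9. Of the 92 symbols described, 91 matched the RefSeq gene table for GRCg7b, and the exception was ADCY5.

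The symbol rule found 93 genes, of which 1 is not reported here and enters no count of members. The members and lists were chosen with earlier results of these data known. Values in every library were given for up to 3 members per family (2 in families under 5 genes) that were called with CN03 without overlap and had the largest log2FC, and for 11 genes whatever their values. From each pathway list up to 4 called genes with the largest log2FC were named. Same-numbered libraries deviated together in all 4 pairs, each correlation being above 0.1 over 10349 genes, for CN03 against vehicle in atria (lowest 0.246) and for SAN against atria at t0 (lowest 0.112). In these comparisons alone the numbers were read as a possible pairing. The main fit left the pairing out, so its SEs and adjusted p values are unpaired in every comparison. The labels do not say that the numbers match between groups, and differently numbered libraries were not compared. As an alternative only, the replicate block entered the fit of all 24 libraries, and so all comparisons. Alternatives were the replicate block, quantile normalization, median centring, a pseudocount of 1, a filter on a mean log2 value above 1, no fold limit, the compared groups alone, no trend, and each library left out in turn.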

Additional observations from a re-analysis of the deposited data

Results flagged for a closer look

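In each group of 4 libraries, a library was marked where its gap to the nearest other was an unusually large part of the group's whole range by Dixon's criterion, which chance gives in about 1 in 20 groups. Among 180 sets of 4 values (30 genes in 6 groups), 8 were marked. ADRA1B read 2.57 in replicate 4 of SAN vehicle, where the other 3 lay between 1.59 and 1.73. ADORA2B read 3.73 in replicate 3 of SAN vehicle, where the other 3 lay between 3.90 and 3.92. PDE1C read 5.30 in replicate 2 of atria vehicle, where the other 3 lay between 4.52 and 4.64. AKAP9 read 8.02 in replicate 2 of atria CN03, where the other 3 lay between 7.59 and 7.67. ADORA1 read 2.35 in replicate 2 of atria t0, where the other 3 lay between 3.58 and 3.66. PDE4D read 4.94 in replicate 3 of SAN CN03, where the other 3 lay between 4.33 and 4.43. PDE4D read 3.54 in replicate 2 of atria t0, where the other 3 lay between 4.25 and 4.30. PDE3A read 5.07 in replicate 2 of SAN t0, where the other 3 lay between 4.17 and 4.30. 

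For 15 genes the CN03 response differed between the tissues by the limma interaction test, with a difference (SAN minus atria) past 1 and an adjusted p below 0.05. The response was more positive in SAN for CHRM2 (1.34), GNAZ (1.38), RGS11 (2.59), RGS12 (1.13), PDE1C (1.94), PDE6H (2.21). It was more negative in SAN for CHRM3 (-1.29), ADORA2B (-1.37), ADCY7 (-1.56), ADCY8 (-1.84), PDE7B (-1.70), PDE8A (-1.24), PDE11A (-1.04), PRKAR2B (-2.23), AKAP5 (-1.54). Their adjusted p ranged from 5.97e-06 for PDE8A to 0.0408 for PDE6H. Over all genes the response was more positive in SAN for 1.96% and more negative for 6.34%. In 16 fits that each left out 1 library, PDE6H kept its call in 5, PDE11A in 12 and GNAZ in 13. The calls of CHRM3, ADCY7 and PDE11A were lost after quantile normalization. Those of CHRM3, GNAZ, ADCY7 and PDE11A were lost with a pseudocount of 1.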

How the results depend on the processing

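Of the 190 gene-by-comparison calls among the 92 genes, 154 held without each single library in turn, and 12 of the other 36 missed the adjusted p limit in at least 1 such fit. The counts rising and falling then ranged over 8 to 13 and 17 to 22 for CN03 in SAN, 16 to 19 and 17 to 19 for CN03 in atria, 19 to 21 and 4 to 5 for culture in SAN, and 26 to 29 and 7 to 9 for culture in atria. Higher and lower in SAN they ranged over 12 to 14 and 4 to 7 at t0, 13 to 16 and 6 to 10 with vehicle, 4 to 6 and 3 to 7 with CN03, and 5 to 7 and 8 to 11 for the interaction. The count of 10 came without replicate 4 of SAN vehicle and that of 3 lower with CN03 without replicate 1 of atrial CN03. With the replicate block the counts were 10 and 18, 18 and 18, 20 and 4, 28 and 8, 13 and 5, 16 and 6, 6 and 6, and 7 and 9 in the same order. The block changed the calls of PDE6B at t0 (adjusted p = 0.0318) and RGS5 for the interaction (0.0327) and no other.

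With no fold limit the counts took in smaller changes by construction. They were 27 and 35 for CN03 in SAN and 35 and 33 in atria. For culture they were 36 and 15 in SAN, with 21 falling in atria. Between tissues they were 28 and 15 at t0, 34 and 21 with vehicle, and 18 and 19 with CN03. The interaction gave 11 and 23. In either direction, 62, 68, 51, 63, 43, 55, 37 and 34 of the 92 passed in this order of comparisons. Over all 12422 genes 8843, 9001, 6389, 7325, 4457, 5289, 4716 and 3371 passed. Among genes with a mean log2 value above 1, which are fewer, 10 fell with CN03 and 12 rose in culture in SAN, and 3 were higher in SAN with CN03. Of all 11137 genes above that level, 1609 fell with CN03 and 731 rose in culture in SAN, and 282 were higher in SAN with CN03. After quantile normalization 8 were lower in SAN at t0, 10 higher and 12 lower with vehicle, and 3 higher with CN03, and RGS20 in SAN culture reversed to -0.13. With a pseudocount of 1, 3 were lower at t0, 9 higher with vehicle, and 1 higher with CN03. Over all genes the pseudocount changed these counts from 356, 952 and 477 to 277, 604 and 223. For quantile normalization the cause was not tested. With read depth unknown, the precision of the lowest genes, such as PDE6B, PDE6H and RGS20, is known only from the spread between libraries. The fit pooled that spread over the 6 groups and moderated it with a mean-variance trend over all genes.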
